A study of Mus musculus with 13 samples.

Results

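Scart-positive T cells of the mouse liver were described, defined as barcodes with at least 1500 unique molecular identifiers (UMIs, counted cDNA molecules) that carried at least 1 UMI of the scavenger receptor genes Cd163l1 or 5830411N06Rik, at least 1 UMI of the CD3 genes Cd3d, Cd3e or Cd3g, at least 1 UMI of the 4 genes Trdc, Blk, Sox13 or Il23r, and no UMI of Cd8a or Cd8b1. Of 95563 barcodes with at least 1500 UMIs, 226 met this rule, among 18902 CD3-positive barcodes. Of the 226 cells, 138 carried Cd163l1 only, 78 carried 5830411N06Rik only and 10 carried both. The members were thus chosen by their measured UMI counts of 11 genes, so the levels of these genes describe the choice and were given no test.

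The study followed the liver of male C57BL/6J mice, 6 to 12 weeks old, fed chow with 0.1% DDC, a compound that injures the bile ducts and leads to periportal fibrosis. Droplet single-cell libraries were made at D0 (no DDC), D3, D5, D9, D19 and D25 of the diet, each by isolation protocol A and by protocol B, and 1 further library, STOP, came from mice returned to normal food for 7 days after DDC to D18. D0 is steady state, D3 and D5 are the onset stage, and D9, D19 and D25 the progression stage. The D19 protocol B library is given day 18 in 1 of its labels. Protocol A sorted live CD45+ cells together with epithelial, endothelial, mesothelial and stellate fractions, while protocol B combined live cells of a stellate cell preparation with sorted CD45+ Itgax+ CD64-, Epcam+ and CD3e+ Lyve-1- cells. Livers may have been pooled within a library, and the labels do not tie libraries to mice, so every p below measures the spread between libraries.

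Gamma delta (γδ) T cells carry a T cell receptor built from a γ and a δ chain, and those that make interleukin 17, termed γδ T17 cells, are laid down largely in fetal life and settle in barrier tissues, liver included. They depend on the transcription factors Maf and Sox13, respond to interleukins 1, 7 and 23, and carry little of the interferon γ and granzyme programme of cytotoxic lymphocytes. Cd163l1 encodes Scart1 and 5830411N06Rik encodes Scart2, related transmembrane proteins with scavenger receptor cysteine-rich domains. The genes are neighbours on chromosome 7 (GRCm38, GENCODE M21), with Cd163l1 at chr7:140218267-140231145 and 5830411N06Rik at chr7:140247284-140300736, both on the plus strand and 16138 bases apart.

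Trdv4, the variable segment of the δ chain on which the comparison of the receptor sets below turns, lies at chr14:54074905-54075515 (GRCm38, plus strand), upstream of the δ constant gene Trdc at chr14:54142851-54148868. Its last 90 coding bases, at chr14:54075426-54075515, are shown from the GENCODE M21 transcript, with capitals from the last in-frame cysteine codon, where the germline part of the antigen-contacting loop begins.
Trdv4: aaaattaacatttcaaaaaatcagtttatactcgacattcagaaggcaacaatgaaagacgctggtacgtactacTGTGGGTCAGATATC
The other sequence is the 250 bases before the start of Il17a, at chr1:20730655-20730904 (RefSeq, GRCm38.p6, plus strand), shown because Il17a and the factor gene Rora were both higher in Scart-positive cells. Capitals mark AGGTCA, the half-site that ROR family factors and other nuclear receptors bind, searched on both strands.
Il17a: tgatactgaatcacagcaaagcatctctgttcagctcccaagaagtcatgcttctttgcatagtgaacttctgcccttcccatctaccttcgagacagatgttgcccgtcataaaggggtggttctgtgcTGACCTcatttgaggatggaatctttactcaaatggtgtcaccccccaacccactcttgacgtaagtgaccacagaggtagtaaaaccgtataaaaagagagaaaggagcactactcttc
The single match begins 120 bases before the start, on the opposite strand. The same letters stood in the equivalent window of 4607 of 32851 promoters (14.0%) and of 5 of 24 genes of the γδ T17 list (20.8%), and a match is a description of the sequence, not of binding.

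The cells came mostly from protocol B. D5 B held 29, D9 B 34, D19 B 56, D25 B 53 and STOP 30, whereas D0 A and D0 B held 3 each, D3 B 4, D9 A 8 and D25 A 6. None was found in D3 A, D5 A or D19 A, where 0 of 76, 0 of 111 and 0 of 139 CD3-positive barcodes allow shares of up to 3.95%, 2.70% and 2.16%. Median depth of the cells ranged from 1999 to 6159 UMIs among the libraries, and no member barcode was shared between libraries as a member, although 1104 of 94448 barcode sequences occurred in more than 1 library.

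Within 100 UMIs of the depth minimum lay 3 members above it and 5 barcodes below it that met the other conditions. A single receptor UMI placed 46 members (20.4%), and 71 (31.4%) had a single UMI over Trdc, Blk, Sox13 and Il23r. In all, 633 barcodes carried a Scart UMI. Of 330 with Cd163l1 only, 35 had CD3 but neither a γδ gene nor Cd8, and 115 had Cd8 without a γδ gene; of 284 with 5830411N06Rik only these numbers were 58 and 120.

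**Figure D1:**
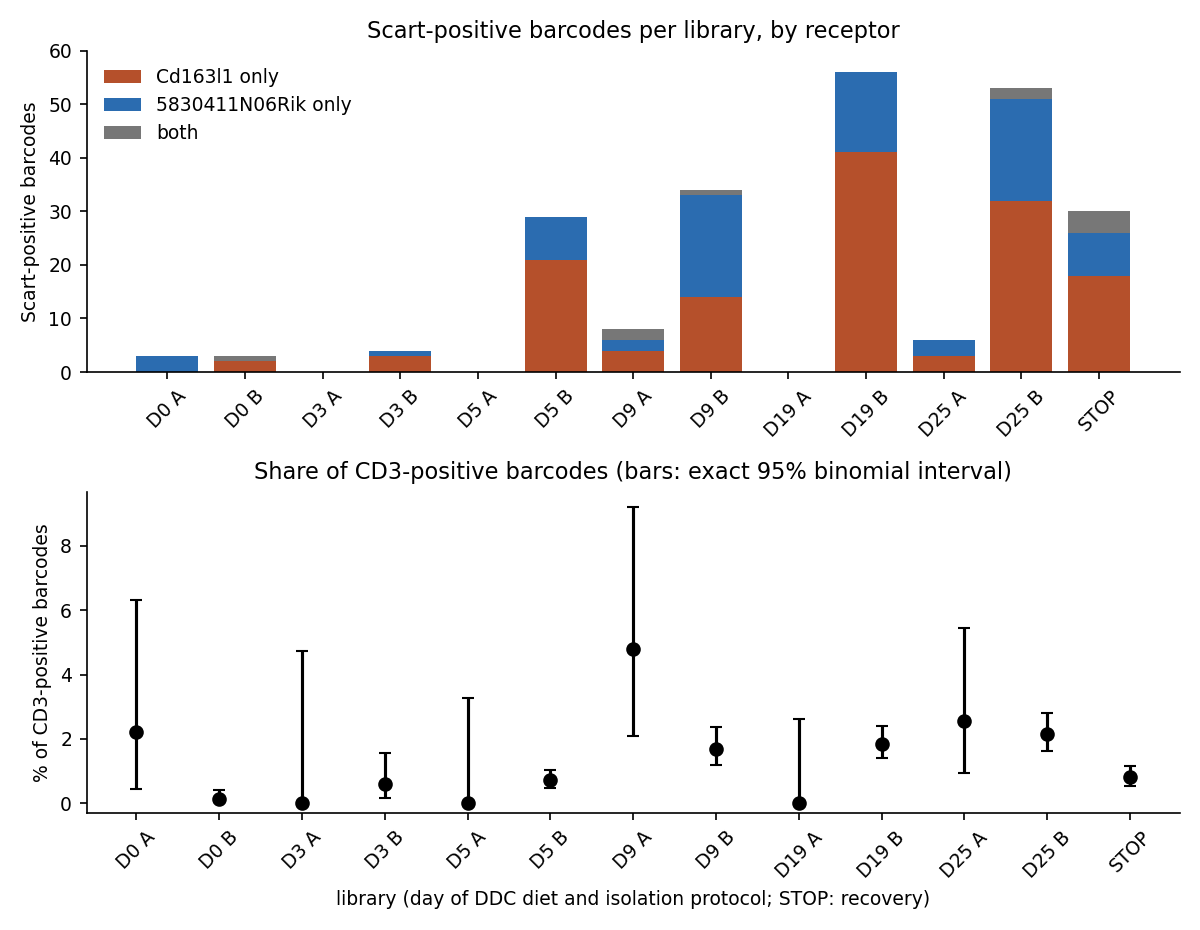
Upper panel, number of Scart-positive barcodes (bar height) in each of the 13 libraries by receptor; lower panel, their percentage of CD3-positive barcodes with exact 95% binomial intervals, which cover counting error only. D19 B holds the most cells, 56, and D9 A the highest share, 4.79%, from 8 cells.

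Among CD3-positive barcodes, Scart-positive cells made up 0.138% in D0 B (exact 95% binomial interval 0.0284 to 0.402), 0.611% in D3 B, 0.731% in D5 B (upper bound 1.05), 1.70% in D9 B (lower bound 1.18), 1.85% in D19 B, 2.15% in D25 B and 0.803% in STOP (upper bound 1.14). Within protocol B the share was thus lowest without DDC, and the intervals of D0 B and D5 B did not overlap those of the progression libraries. The interval of D3 B, from 4 cells, was 0.167 to 1.56 and overlapped those of D0 B, D9 B and D19 B. These intervals cover counting error within single libraries only, so they do not test a difference between stages. In barcodes thinned to the UMI minimum, D0 B stood at 0.102%, D3 B at 0.382% (2 of 524), D5 B at 0.536% (14 of 2611) and D9 B at 0.793% (13 of 1639). There D19 B stood at 1.04% and D25 B at 1.34%. No intervals were computed after thinning, so the separation of D5 B is shown at full depth only. The shares that follow are of unthinned barcodes. Protocol A gave 2.21% in D0 A (0.457 to 6.31), 4.79% in D9 A and 2.54% in D25 A, from 8 cells or fewer in each, and 3 of 3 cells in D0 A, 5 of 8 in D9 A and 1 of 6 in D25 A carried genes of other lineages. Over both protocols the mean share was 1.44% in the 10 DDC libraries and 1.17% in the 2 D0 libraries, a difference of 0.265 percentage points (two-sided exact permutation within protocol, p = 0.889, smallest possible 0.0278). In protocol B alone, an alternative chosen after seeing the data, it was 1.27 points (exact permutation p = 0.167, which is the smallest possible with 1 D0 library). Without the D0 B library the direction reversed, to -0.769 points, and without the D9 A library it was -0.107 points. Without barcodes carrying genes of other lineages it was 1.73 points (1.82% against 0.0866%, exact permutation p = 0.333). Sorting gates set these denominators, and in sorted cells a rise in one population cannot be told apart from a loss of others.

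The label of γδ T17 cells was checked against genes the rule did not require. Il7r, the receptor for interleukin 7, was detected in 96.9% of the 226 cells, Il18r1 in 89.8%, Maf in 86.7%, Ccr2 in 83.6% and Rora in 81.4%, and Cd27, carried by γδ T cells that make interferon γ, and Foxp3 of regulatory T cells in 0 of 226, which allows up to 1.33% of cells with a UMI of each and sets no limit on cells that express them. The detected genes and the lack of Cd27 and Foxp3 UMIs went with the name. The CD4 T cell list that holds Foxp3 (Cd4, Foxp3, Ctla4, Cd40lg) did not, with a UMI in 57 of 226 cells (25.2%). It was found in 21.0% of Cd163l1-only and 34.6% of 5830411N06Rik-only cells. In other CD3-positive barcodes with Trdc and no Cd8 or Scart UMI the share was 22.7%.

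The T cell receptor genes went with the name less uniformly. Trdc was detected in 117 of 226 cells (51.8%), Blk in 150, Sox13 in 68 and Il23r in 78, so 109 cells entered without a δ constant transcript. Trdc was found in 65.2% of Cd163l1-only and 28.2% of 5830411N06Rik-only cells, and Trac, the constant gene of the α chain, in 29.0% and 35.9%. In 5830411N06Rik-only cells Trac was found in 26 of 56 without Trdc (46.4%, interval 33.0 to 60.3) and in 2 of 22 with Trdc (9.09%, 1.12 to 29.2). In Cd163l1-only cells it was found in 17 of 48 without Trdc (35.4%, 22.2 to 50.5) and in 23 of 90 with Trdc (25.6%, 16.9 to 35.8). Trac was found in 80.4% of Cd8-positive T barcodes and 1.64% of B-cell-marked barcodes. A list that adds the β constant genes (Trac, Trbc1, Trbc2, Trav11, Trav11d, Trav1, Zbtb16) was found in 210 of 226 cells (92.9%). It was found in 95.3% of other CD3-positive barcodes with Trdc and no Cd8 or Scart UMI, so it did not separate them. Trac in both receptor sets, in cells with and without Trdc, went against the γδ label, and the cells are named here by their receptors.

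Transcripts of genes known from other lineages were found in some members, and their source was not tested. At least 2 UMIs within a single short gene list marked 41 of 226 members (18.1%). The lists were of B cells (Cd79a, Ms4a1), macrophages (Clec4f, Csf1r, C1qa), endothelium (Stab2, Clec4g, Kdr), biliary epithelium (Epcam, Krt19), fibroblasts (Dcn, Col3a1) and dendritic cells (Siglech, Clec9a, Cd209a). Genes of hepatocytes, monocytes, neutrophils and NK cells did not mark a barcode. A list of monocyte and neutrophil genes was found in 124 of 226 members (54.9%). A longer biliary list (Epcam, Krt7, Krt19, Krt18, Sox9, Spp1) summed to 11383 CPM (UMIs scaled to a common total) in the members of D9 B, 5054 in D25 B and 3487 in STOP, against 150.2 in D5 B and 210.1 in D19 B. Fits were repeated without these 41 barcodes and their counterparts, referred to as the cleaned cells. There the members kept 85620 of 146442 UMIs in D5 B, 152644 of 335073 in D9 B and 171723 of 299829 in D19 B. In D25 B they kept 205706 of 363084 and in STOP 93301 of 129339. Levels given over all cells include the removed barcodes, which took the largest part of the UMIs in D9 B, and their effect on single genes was not tested.

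The first comparison asked how Cd163l1-only and 5830411N06Rik-only cells differ, in the 3 libraries where each set had at least 10 cells, D9 B (14 and 19 cells), D19 B (41 and 15) and D25 B (32 and 19). Cd163l1-only cells held Trdv4, more of the γ constant gene Trgc1, more Pdcd1, which encodes the inhibitory receptor PD-1, and more Il17a, and 5830411N06Rik-only cells held more Cd40lg, the T cell ligand of CD40, and Lmo4, a transcriptional cofactor. With all cells none of 3165 genes passed an adjusted p of 0.05 (0% called; edgeR quasi-likelihood test, Benjamini-Hochberg), 135 (4.27%) fell under 0.05 before adjustment, and DESeq2 called 2, Pdcd1 and Trgc1. In the cleaned cells 22 of 1363 genes passed (1.61% called), 10 higher (0.734%) and 12 lower (0.880%) in Cd163l1-only cells. DESeq2 called 6 of these 1363, Trdv4 and Trgc1 higher and Cd40lg, Lmo4, Pxdc1 and Rgcc lower. There Pdcd1 (adjusted p = 0.0601), Rora (0.530), Serpinb1a (0.567) and Il17a (0.999) did not pass, nor did Cd247 and Tiparp. The genes named in this comparison were chosen after their values were seen.

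Trdv4 reached 625 normalised CPM (summed UMIs scaled to a common total, TMM-adjusted) in the Cd163l1-only cells of D9 B, 328 in D19 B and 98.7 in D25 B, and 0 in the 5830411N06Rik-only cells of each. The sets did not overlap in any library. Over the 3 libraries, 144 Trdv4 UMIs stood against 0, a level at least 45.9-fold higher when 3 counts over the group are taken as the limit, and at least 16.9-fold without D9 B, whose 5830411N06Rik-only cells held 250297 of the 480853 UMIs behind that limit and a biliary list at 15194 CPM (adjusted p = 0.160 with all cells, and 9.46e-07 in the cleaned cells, edgeR). By cell, Trdv4 was detected in 86 of 138 Cd163l1-only cells (62.3%), 0 of 78 5830411N06Rik-only cells, which allows up to 3.85%, and 0 of 10 cells with both receptors. In B-cell-marked barcodes the share was 0.182%. Trgv6, a γ variable segment, was detected in 16 Cd163l1-only cells, 13 of them with Trdv4, and in 0 of 78. Trgv4 was detected in 2 cells of each set.

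Trgc1 stood at 772, 835 and 765 normalised CPM in the Cd163l1-only cells of D9 B, D19 B and D25 B, and at 85.0, 289 and 167 in the 5830411N06Rik-only cells. Every Cd163l1-only value was above every 5830411N06Rik-only value, and the log2 fold change was 2.29 ± 0.37 (SE; adjusted p = 0.482 with all cells; 1.90 ± 0.22 and 9.86e-06 in the cleaned cells, edgeR). The δ and γ segments together held 5 tested genes, of which 0 passed with all cells and 2, Trdv4 and Trgc1, in the cleaned cells.

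Pdcd1 was at 282, 341 and 509 normalised CPM in the Cd163l1-only cells of D9 B, D19 B and D25 B against 20.2, 0 and 6.67 in the 5830411N06Rik-only cells, a log2 fold change of 4.92 ± 0.62 (adjusted p = 0.160; 4.06 ± 0.49 and 1.22e-05 in the cleaned cells, edgeR). The lowest Cd163l1-only library was far above the highest of the other set. It was detected in 88 of 138 Cd163l1-only cells (63.8%) and 5 of 78 others (6.41%), at median depths of 4077 and 4223 UMIs. Cd247, the CD3 ζ chain that signals from the receptor, had a log2 fold change of 2.33 ± 0.50 (adjusted p = 0.601; 2.11 ± 0.34 and 0.000599 in the cleaned cells, edgeR).

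Il17a was at 356, 897 and 716 normalised CPM in the Cd163l1-only cells of D9 B, D19 B and D25 B and at 68.8, 26.3 and 220.0 in the 5830411N06Rik-only cells. The groups did not overlap, and the log2 fold change was 2.67 ± 0.56 (adjusted p = 0.601; 2.09 ± 0.36 and 0.000897 in the cleaned cells, edgeR). Within Cd163l1-only cells, Il17a was detected in 38 of 86 cells with Trdv4 (44.2%, exact interval 33.5 to 55.3) and in 12 of 52 without (23.1%, 12.5 to 36.8), and in 14 of 78 5830411N06Rik-only cells (17.9%, 10.2 to 28.3). No Il17a UMI was found in 550 B-cell-marked barcodes. Il17f, its close relative, was detected in 3.62% of Cd163l1-only and 8.97% of 5830411N06Rik-only cells.

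Of the γδ T17 list, 19 genes were tested in the cleaned cells, and 3 passed higher in Cd163l1-only cells (Il17a, Rora and Serpinb1a, an inhibitor of neutrophil proteases) and 1 lower (Lmo4). Over all 1363 genes tested there, 0.734% passed higher and 0.880% lower. With all cells 0 of 22 tested genes of the list passed. The list's median log2 fold change was 0.31 against -0.01 over all genes tested. Rora stood at 822, 772 and 874 normalised CPM against 235, 579 and 373, and Serpinb1a at 478, 592 and 474 against 295, 316 and 147, in each case without overlap. Lmo4 ran the other way, at 552, 395 and 257 against 599, 1394 and 753, with the D9 B value of the 5830411N06Rik-only cells close to that of the Cd163l1-only cells. In the cleaned cells of D9 B the 5830411N06Rik-only set kept 79640 of 250297 UMIs and the Cd163l1-only set 67257 of 79029. The part of the removed barcodes in the D9 B values of Lmo4, Rora, Serpinb1a, Trgc1, Pdcd1 and Il17a was not tested.

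Cd40lg was at 0, 8.97 and 29.6 normalised CPM in the Cd163l1-only cells of D9 B, D19 B and D25 B and at 154, 197 and 100.01 in the 5830411N06Rik-only cells (log2 fold change -3.20 ± 0.69, adjusted p = 0.601; -3.42 ± 0.56 and 0.000599 in the cleaned cells, edgeR). The groups did not overlap. Among 5830411N06Rik-only cells Cd40lg was detected in 33.9% of those without Trdc and 4.55% of those with Trdc, and Trac was likewise more frequent in those without Trdc. Pxdc1, Rgcc, a regulator of the cell cycle, and Tiparp, a target of the aryl hydrocarbon receptor, were also lower in the cleaned Cd163l1-only cells, with log2 fold changes of -1.93 ± 0.30, -1.62 ± 0.27 and -1.95 ± 0.32.

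**Figure D2:**
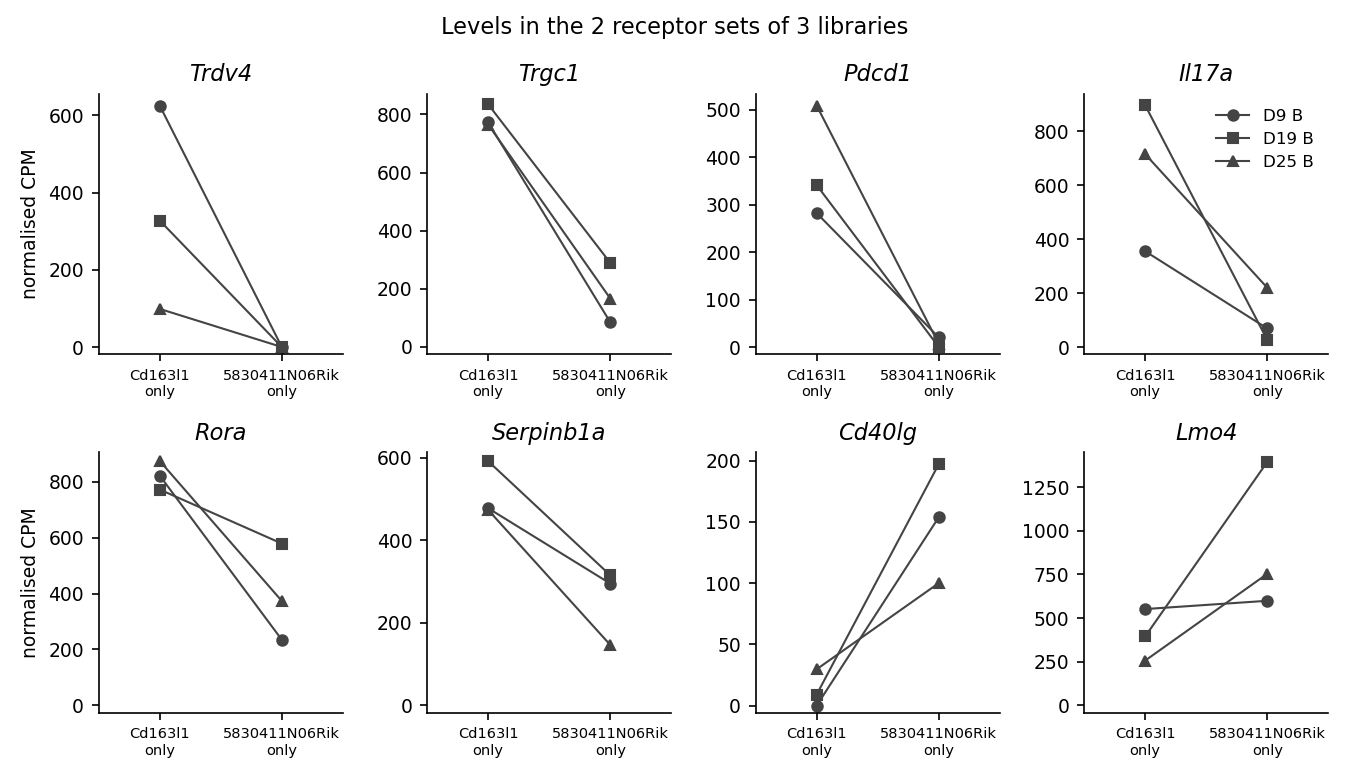
Normalised CPM (linear axis) of 8 genes in Cd163l1-only and 5830411N06Rik-only cells, 1 line per library (D9 B, D19 B, D25 B). Trdv4, Trgc1, Pdcd1, Il17a, Rora and Serpinb1a were higher in the Cd163l1-only cells of each library, Cd40lg and Lmo4 lower.

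The sets of D5 B (21 and 8 cells) and STOP (18 and 8 cells) were too small for that fit, but gave values on the same side. Trdv4 was at 195 CPM (not TMM-adjusted) in the Cd163l1-only cells of D5 B and 366 in those of STOP against 0 and 0, Pdcd1 at 136 and 500.4 against 35.2 and 0, Il17a at 796 and 867 against 35.2 and 199, and Trgc1 at 686 and 1001 against 141 and 359. With these libraries added, a minimum of 8 cells chosen after seeing the data, 6 of 1670 genes passed (edgeR), Trdv4, Trgc1, Pdcd1, Il17a and Cd247 higher and Rgcc lower in Cd163l1-only cells. Without D19 B, 9 of 3343 genes passed, Trdv4 higher and 8 lower, among them the macrophage genes Clec4f, Marco, Cd5l, Vsig4 and Lyz2. Macrophage transcripts in the 5830411N06Rik-only cells moved with that result, and their part in it was not tested.

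Detection by cell gave further differences between the receptor sets, listed as descriptions over cells of all libraries. Ccr6, the receptor for the chemokine CCL20, was found in 10 of 138 Cd163l1-only cells (7.25%, exact interval 3.53 to 12.9) and 28 of 78 5830411N06Rik-only cells (35.9%, 25.3 to 47.6). S1pr1, which lets lymphocytes leave tissue, was found in 21.0% and 53.8%, and Klf2, a factor that drives S1pr1, in 35.5% and 56.4%. Ccr2, a receptor for monocyte chemokines, was found in 91.3% and 67.9%, Ltb4r1, the leukotriene B4 receptor, in 58.0% and 30.8%, and Cxcr3, the receptor for interferon-induced chemokines, in 22.5% and 6.41%. After thinning each cell to 1500 UMIs these stood, in the same order of sets, at 5.07% and 17.9% for Ccr6, 8.70% and 26.9% for S1pr1, 67.4% and 43.6% for Ccr2, and 33.3% and 8.97% for Ltb4r1. Ccr6 was too sparse for the test over libraries, as was Cxcr3 in the cleaned cells, and the others did not pass it in all or in the cleaned cells (adjusted p of at least 0.100 throughout, edgeR). The circulation and residency list had 0 of 17 tested genes past it with all cells and 0 of 14 in the cleaned cells. Of the 78 5830411N06Rik-only cells, 56 lacked Trdc and 26 of these carried Trac. The part of those cells in the detection differences was not tested.

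**Figure D3:**
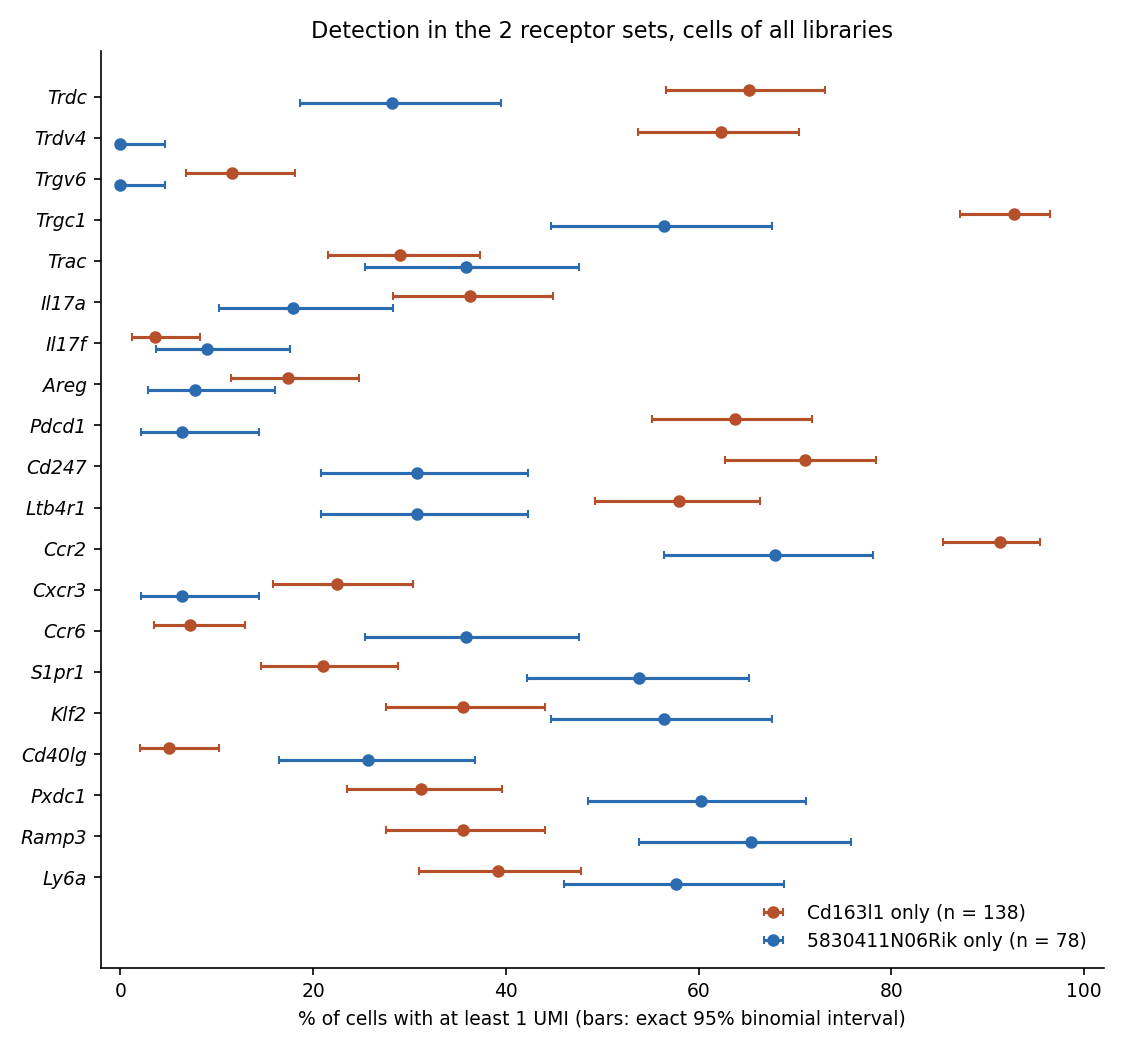
Percentage of cells with at least 1 UMI of each gene in 138 Cd163l1-only and 78 5830411N06Rik-only cells, with exact 95% binomial intervals that cover counting error only; the genes were chosen after their values were seen. Trdv4, Pdcd1 and Trgc1 lie to the right in Cd163l1-only cells, and Ccr6, S1pr1, Cd40lg, Pxdc1 and Ramp3 in 5830411N06Rik-only cells.

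The second comparison set Scart-positive cells beside the other T barcodes that carried Trdc, CD3 and no Cd8 or Scart UMI, in the 5 libraries with at least 10 of each (D5 B, D9 B, D19 B, D25 B and STOP; 29 to 56 Scart-positive and 40 to 61 other cells per library). Scart-positive cells held more of the γδ T17 programme, of several S100 and cytoskeletal genes and of the receptors Ltb4r1, Il1r1, Il18r1 and Icos, and less of the granzymes, killer lectin-like receptors and the chemokine Ccl5. Of 4449 genes tested, 279 passed (6.27% called), 152 higher (3.42%) and 127 lower (2.85%; edgeR with library as block), and DESeq2 called 198. In the cleaned cells 480 of 2613 passed (18.4%), 253 higher (9.68%) and 227 lower (8.69%). The counts of list genes below are to be read against these shares. The other Trdc-positive cells carried NK cell and ILC1 genes (Ncr1, Klrb1c, Klre1, Eomes, Klra8) in 66.6% of barcodes, 46.9% to 85.4% in the 5 libraries, against 11.1% of the 226 cells, so the reference was largely of a cytotoxic kind.

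Of the γδ T17 list, 19 of 22 tested genes rose and 0 fell, with a median log2 difference of 2.25 against -0.01 over all genes, and 19 of 20 in the cleaned cells. The members were chosen with 3 genes of this list, Blk, Sox13 and Il23r, which were not tested. Il17a was at 676, 130.4, 667, 493 and 557 normalised CPM in the Scart-positive cells of D5 B, D9 B, D19 B, D25 B and STOP, and at 0, 0, 33.2, 124 and 0 in the other Trdc-positive cells. D9 B was lowest among Scart-positive cells and still above the highest reference value, and the log2 fold change was 4.46 ± 0.73 (adjusted p = 0.00534, edgeR). Ltb4r1 was at 214, 82.2, 234, 148 and 139 against 4.47, 0, 11.1, 14.6 and 0 (4.69 ± 0.44, adjusted p = 0.000373, edgeR). Serpinb1a was at 377, 323, 515, 326 and 491 against 40.2, 22.4, 8.84, 54.9 and 9.97 (4.00 ± 0.43, adjusted p = 0.000626, edgeR). Neither gene's groups overlapped. Aqp3, a water and glycerol channel, rose by 4.53 ± 0.57 on the log2 scale, Zbtb16, which encodes the innate-like lymphocyte factor PLZF, by 3.56 ± 0.45 and Icos, a costimulatory receptor, by 3.21 ± 0.26. Sox4, Cd9 and Tcf12 were the 3 that did not pass.

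**Figure D4:**
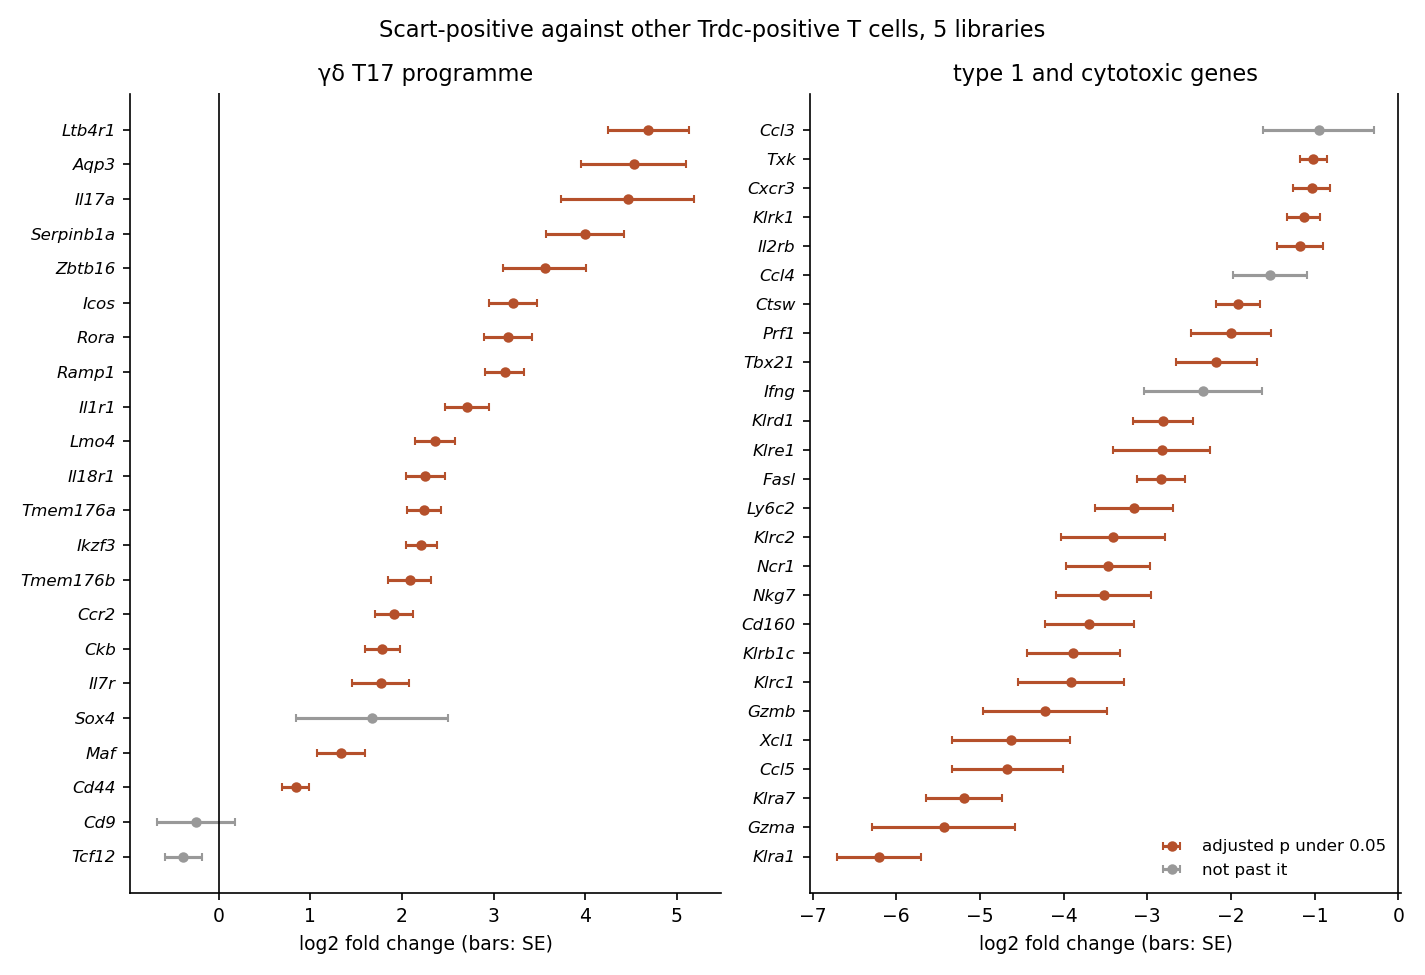
Log2 fold change (points) and SE (bars) of each tested gene of the γδ T17 list (left) and of the type 1 and cytotoxic list (right), Scart-positive against other Trdc-positive T cells over 5 libraries. Of the first list 19 of 22 passed, all higher, and of the second 23 of 26, all lower; the reference cells carried NK cell and ILC1 genes in 66.6% of barcodes.

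Among receptor segments, Trdv4 was at 164, 145, 241, 54.8 and 219.9 normalised CPM against 4.47, 2.49, 6.63, 7.32 and 6.65 (log2 fold change 4.83 ± 0.34, adjusted p = 0.000110, edgeR), and Trgc1 rose by 1.70 ± 0.22. D25 B was lowest in Trdv4, without overlap with the reference. The other 4 tested segments did not pass. Of the αβ receptor list, 1 of 6 tested genes passed, Cd28, a costimulatory receptor, lower by -1.45 ± 0.33, and it missed the threshold without D5 B (adjusted p = 0.115) or D9 B (adjusted p = 0.0821, edgeR).

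Of 32 tested transcription factors, 6 rose and 3 fell, beside 3.42% of all genes higher and 2.85% lower. In the cleaned cells 9 of 27 rose and 2 fell, beside 9.68% and 8.69% of all genes. Against the reference without NK cell and ILC1 genes, described below, 2 of 26 rose and 1 fell, beside 1.46% and 0.706%. Rora, an orphan nuclear receptor of type 17 lymphocytes, was at 726, 363, 713, 674 and 836 normalised CPM against 58.1, 42.4, 68.5, 165 and 56.5 (log2 fold change 3.15 ± 0.26, adjusted p = 0.000198, edgeR). Ikzf3, which encodes Aiolos, rose by 2.21 ± 0.17 and Maf by 1.34 ± 0.26, while Tbx21, the type 1 factor T-bet, fell by 2.17 ± 0.48, and Lef1, a factor of naive T cells, changed by -1.32 ± 0.26. Maf was past the threshold with all libraries but not without D5 B (adjusted p = 0.0509) or without D25 B (adjusted p = 0.0634, edgeR). Lef1 missed it without D5 B (adjusted p = 0.0848), and Tbx21 without D5 B, D9 B, D19 B or STOP (adjusted p = 0.0613 to 0.0951, edgeR). In the cleaned cells all 3 passed, Maf at 3.27 ± 0.25 (adjusted p = 6.17e-09), Tbx21 at -2.52 ± 0.43 (0.000198) and Lef1 at -1.35 ± 0.22 (0.000137, edgeR).

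Among receptors for cytokines, 4 of 20 tested genes rose and 2 fell, beside 3.42% of all genes higher and 2.85% lower. Il1r1, the interleukin 1 receptor, was at 171, 113, 119, 95.9 and 161 normalised CPM against 22.3, 9.97, 22.1, 18.3 and 26.6 (log2 fold change 2.71 ± 0.24, adjusted p = 0.000292, edgeR), with no overlap. Il18r1 rose by 2.26 ± 0.22, Il2ra by 2.17 ± 0.25 and Il7r by 1.77 ± 0.31, and Il21r and Il2rb, the latter shared by the interleukin 2 and 15 receptors, fell by 1.45 ± 0.23 and 1.18 ± 0.27. Il2rb missed the threshold without D5 B, D19 B or STOP (adjusted p = 0.0619 to 0.109, edgeR). In the cleaned cells Il1r1 stood at 4.45 ± 0.47 (adjusted p = 4.32e-07) and Il2rb at -1.11 ± 0.18 (0.000116, edgeR). Of 11 receptors for chemokines and lipid attractants, Ltb4r1, Ccr2 (1.92 ± 0.21) and Gpr183 (1.69 ± 0.22), which senses oxysterols, rose, and 3 fell, among them Ccr7 (-2.51 ± 0.49), which guides cells to lymph nodes, and Cxcr3 (-1.04 ± 0.22), which missed the threshold without D5 B, D25 B or STOP (adjusted p = 0.0736 to 0.0894, edgeR). In the cleaned cells Ccr2 stood at 3.60 ± 0.29 (adjusted p = 1.42e-08) and Cxcr3 at -1.00 ± 0.24 (0.00510, edgeR), and Ccr7 was not tested. Ccr7 was among 6 of 21 residency and circulation genes that fell, with Ly6c2 (-3.16 ± 0.47), Itga4 and Itga1, and Itgae (2.32 ± 0.52), the integrin that binds epithelial E-cadherin, was among 3 that rose. These integrin calls lay near the threshold. Where a library left out made them miss it, log2 fold changes were 1.99 to 2.37 for Itgae, -1.80 to -1.48 for Itga4 and -1.38 to -1.29 for Itga1. In the cleaned cells Itga4 stood at -2.71 ± 0.24 (adjusted p = 5.57e-08) and Itga1 at -2.92 ± 0.36 (4.09e-06, edgeR), and Itgae was not tested. Itgae missed the threshold without D5 B, D9 B, D19 B or D25 B (adjusted p = 0.0621 to 0.117), Itga4 without D5 B, D25 B or STOP (0.0775 to 0.119) and Itga1 without D5 B, D19 B or STOP (0.0508 to 0.0530, edgeR), and Itga1 turned to 0.15 on the log2 scale against a reference without NK cell and ILC1 genes.

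Of costimulation and contact receptors, 5 of 17 rose and 4 fell. Pdcd1 was at 121, 79.4, 251, 285 and 315 normalised CPM against 31.3, 27.4, 22.1, 29.3 and 26.6 (log2 fold change 2.82 ± 0.32, adjusted p = 0.000860, edgeR). The groups did not overlap, and by receptor set the gene was found mostly in Cd163l1-only cells, as given above. Tnfrsf25, the receptor for the cytokine TL1A, rose by 2.55 ± 0.34 and Ly6a, which encodes Sca-1, by 1.68 ± 0.21. Cd160 (-3.69 ± 0.53) and Pglyrp1 (-1.71 ± 0.40) fell, the latter missing the threshold without D5 B, D9 B, D19 B or STOP (adjusted p = 0.0903 to 0.119, edgeR).

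Of 22 calcium-binding, annexin, galectin and cytoskeletal genes 8 rose and 2 fell. Actn2, an α-actinin better known from muscle, was at 221, 99.2, 211, 236 and 608 normalised CPM in the Scart-positive cells against 0, 2.49, 6.63, 18.3 and 0, highest in STOP (log2 fold change 5.40 ± 0.53, adjusted p = 0.000426, edgeR). Capg, an actin-capping protein, was at 448, 255, 412, 573 and 696 against 67.0, 29.9, 61.9, 106 and 116 (2.69 ± 0.16, adjusted p = 9.66e-05, edgeR). Both were separate in each library. S100a4 and S100a10, small calcium-binding proteins of motile cells, rose by 1.80 ± 0.24 and 1.36 ± 0.14.

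Genes outside the lists also passed. Igf1r, the receptor for insulin-like growth factor, was at 292, 264, 485, 332 and 329.9 normalised CPM against 35.8, 17.4, 35.4, 43.9 and 43.2 (log2 fold change 3.31 ± 0.22, adjusted p = 9.66e-05; 5.07 ± 0.35 and 2.65e-09 in the cleaned cells, edgeR). Pxdc1 rose by 4.43 ± 0.47, Krt83, a hair keratin gene, by 4.04 ± 0.53, and Ramp3, a partner of calcitonin family receptors, by 4.04 ± 0.41. By receptor set, Ramp3 was detected in 35.5% of Cd163l1-only and 65.4% of 5830411N06Rik-only cells and Pxdc1 in 31.2% and 60.3%.

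**Figure D5:**
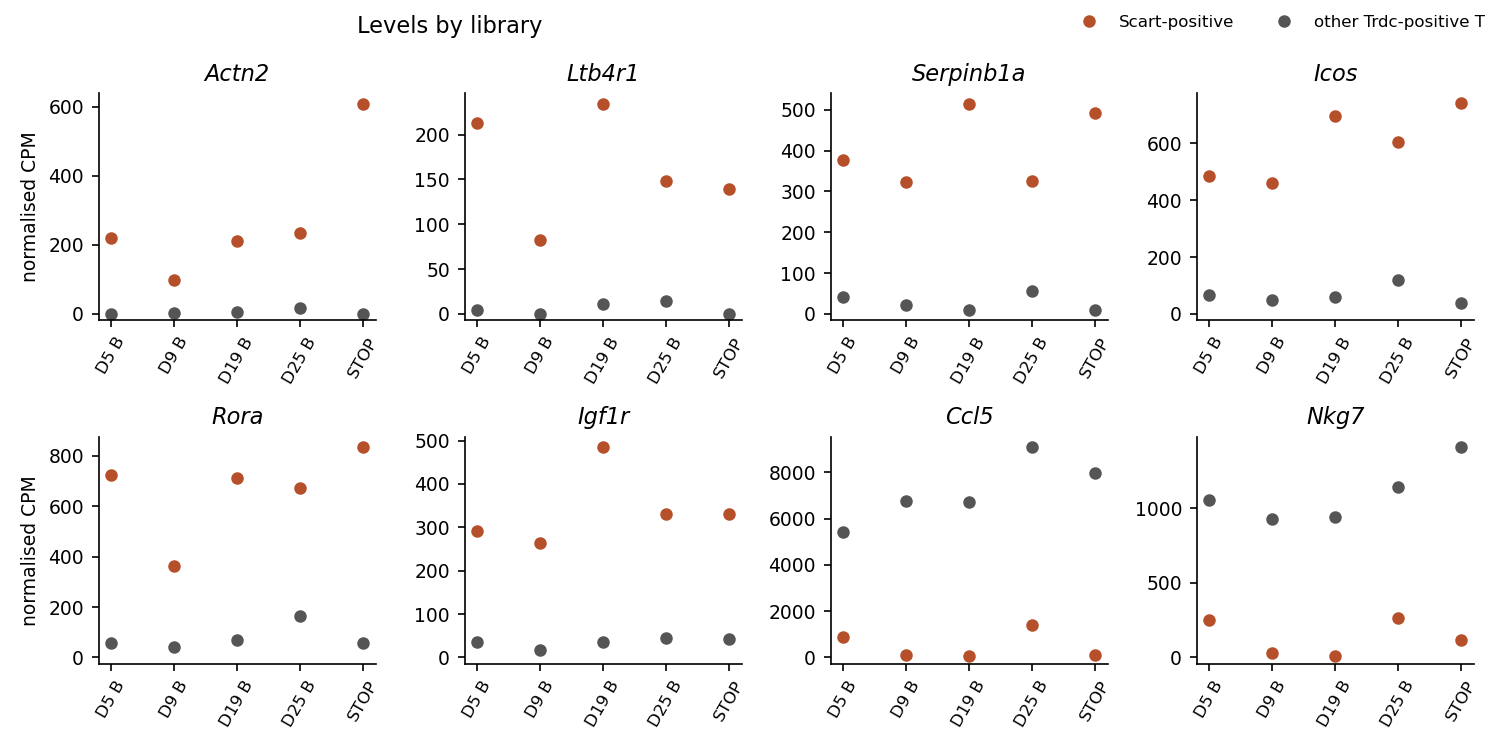
Normalised CPM (linear axis) of 8 genes in Scart-positive cells and in other Trdc-positive T cells, 1 point per library and set. The first 6 genes lie above the reference in each library and Ccl5 and Nkg7 below it; Rora was lowest in D9 B and Actn2 highest in STOP.

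Of the type 1 and cytotoxic list, 23 of 26 tested genes fell and 0 rose, with a median of -3.00 on the log2 scale. Ccl5, a chemokine of cytotoxic lymphocytes, was at 875, 111, 75.9, 1381 and 117 normalised CPM in Scart-positive cells against 5408, 6739, 6717, 9075 and 7979 (log2 fold change -4.67 ± 0.66, adjusted p = 0.00261, edgeR). Gzmb, which encodes granzyme B, was at 49.8, 19.8, 6.60, 422 and 44.0 against 603, 1076, 1521, 1006 and 1233 (-4.22 ± 0.74, adjusted p = 0.00821, edgeR). D25 B was highest among the Scart-positive values of both, and 12 of its 53 members (22.6%) carried NK cell or ILC1 genes, against 2 of 29 in D5 B, 2 of 34 in D9 B, 5 of 56 in D19 B and 3 of 30 in STOP. Nkg7, a protein of cytotoxic granules, had a log2 fold change of -3.52 ± 0.57, Gzma, granzyme A, of -5.43 ± 0.85 and Klrb1c, the NK1.1 receptor, of -3.89 ± 0.56. Gzmb missed the threshold without D5 B (adjusted p = 0.0508, edgeR).

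The count was also taken against a reference without cells that carried NK cell or ILC1 genes. When other Trdc-positive cells with a UMI of the 5 NK cell and ILC1 genes were left out, an alternative chosen after seeing the data that kept 3 libraries (D5 B, D9 B and D19 B), 49 of 2265 genes passed (2.16% called), 33 higher (1.46%) and 16 lower (0.706%; edgeR). The reference, the number of libraries and the number of genes tested changed together here, and their parts in the lower count cannot be told apart. Of the 279 genes, 193 could be tested there, 189 had the same sign and 47 passed. The γδ T17 list then had 11 of 19 genes higher and 0 lower, Rora, Icos, Ltb4r1, Serpinb1a, Il18r1, Ikzf3 and Ccr2 among them, and Il17a did not pass (adjusted p = 0.0736). Among other genes named above, log2 fold changes against this reference were 0.67 for Il7r (adjusted p = 0.452), 0.48 for Gpr183 (0.605), 1.40 for Itgae (0.249), 1.95 for Pdcd1 (0.124), 2.49 for Ramp3 (0.172) and 2.30 for Maf (0.256, edgeR), and none of these passed. Trgc1, Il2ra, Il21r, Il2rb, Itga4, Itga1, Cd160, Ly6a, Krt83, Hk2, Furin, Dusp2 and Cenpa also missed the threshold, and Aqp3, Zbtb16, Tbx21, Ccr7, Cxcr3, Tnfrsf25, Pglyrp1, Xcl1, Top2a, Gbp7, Gzma, Gzmb and Klrb1c were too sparse to be tested there. The type 1 and cytotoxic list had 3 of 11 lower (Ccl5, Nkg7 and Ly6c2). With the Scart-positive side limited to cells with Trdc, 214 of 3324 genes passed (6.44%), 123 higher (3.70%) and 91 lower (2.74%), Il17a among them (log2 fold change 4.55, adjusted p = 0.00416, edgeR). In that comparison Maf (log2 fold change 1.28, adjusted p = 0.103), Itgae (2.14, 0.0534), Ccr7 (-1.93, 0.0515), Itga4 (-1.30, 0.0781), Cd28 (-1.28, 0.0970), Il21r (-0.93, 0.141) and Cxcr3 (-0.55, 0.424; edgeR) did not pass. Pglyrp1, Dusp2, Cenpa and Gbp7 did not pass there either, with adjusted p from 0.118 to 0.336 (edgeR), and Zbtb16, Tnfrsf25, Top2a and Pxdc1 were too sparse to be tested.

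The remaining lists held further calls, to be read against 3.42% of all genes higher and 2.85% lower in all cells, and 9.68% higher and 8.69% lower in the cleaned cells. Of secreted factors, Il17a and Furin (1.83 ± 0.26), a proprotein convertase, rose and Ccl5 and Xcl1 fell among 11 tested, and in the cleaned cells 3 rose and 5 fell among 10, with Ltb higher and Ccl3, Ccl4 and Ifng lower besides. Against the reference without NK cell or ILC1 genes 0 of 8 rose and 1 fell, Ccl5, with Furin at a log2 fold change of 2.03 (adjusted p = 0.0789, edgeR). Of 24 genes of receptor activation 1 passed, Dusp2, a MAP kinase phosphatase, lower by -1.68 ± 0.37, and it missed the threshold without D5 B, D19 B or STOP (adjusted p = 0.0510 to 0.0928, edgeR). In the cleaned cells 6 of 22 rose (Fosb, Dusp1, Fos, Atf3, Nfkbid and Junb) and 3 fell (Myc, Nr4a2 and Dusp2). Of 12 glycolysis genes 1 rose, Hk2, a hexokinase (2.04 ± 0.31), which was too sparse to be tested in the cleaned cells, where Pfkp, a phosphofructokinase, was the 1 of 8 that rose, and which did not pass against the reference without NK cell or ILC1 genes (1.95, adjusted p = 0.276, edgeR). Of proliferation genes Cenpa rose and Top2a fell (7 tested), of interferon-stimulated genes Ly6a rose and Gbp7 fell (12 tested), and 0 of 15 genes of lipid metabolism and 0 of 3 other scavenger receptor genes passed. Gbp7 missed the threshold with any of the 5 libraries left out (adjusted p = 0.0918 to 0.128), Cenpa with each but D5 B (0.0674 to 0.0984) and Top2a without D19 B, D25 B or STOP (0.0716 to 0.171, edgeR).

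Change over the diet was compared within Scart-positive cells between progression (D9 B, D19 B, D25 B) and onset, for which D5 B alone had at least 10 cells. With 1 onset library the spread came from the progression libraries alone, D5 B being assumed to vary like them. None of 6187 genes passed (0% called; edgeR), 389 (6.29%) fell under 0.05 before adjustment, and DESeq2 called 0, with 147 under 0.05 before adjustment. Without D19 B 115 genes passed, 101 higher and 14 lower in progression, and without D25 B 128, 104 higher and 24 lower. In the cleaned cells 14 of 3723 passed (0.376% called), 3 higher (0.0806%) and 11 lower (0.295%), with 252 (6.77%) under 0.05 before adjustment. The 11 lower genes were Apoc1, Wfdc17, Tyrobp and Clec7a, known from myeloid cells, the interferon-stimulated genes Isg15 and Ifit1 (2 of 8 of their list), the galectin Lgals1, the ferritin chains Ftl1 and Fth1, the phosphatase Dusp10 and CT010467.1, and the higher genes included Gzmc and Rps28. These genes are named here after their values were seen. With DESeq2 on the cleaned cells most of them, the higher ones included, were not called. In the cleaned cells Ifit1 stood at 204 normalised CPM in D5 B and at 6.48, 0 and 0 in D9 B, D19 B and D25 B, and Isg15 at 228 against 19.4, 39.8 and 48.9. Gzmc, a granzyme, was high in D25 B alone, at 1022 normalised CPM against 24.0 in D5 B and 12.95 and 0 in D9 B and D19 B. Marker lists of myeloid cells, summed over all members before that removal, did not move together: the dendritic cell list stood at 580.4 CPM in D5 B against 107 to 250.1 in the progression libraries, the Kupffer cell and macrophage list at 123 against 644 to 1340, and the monocyte and neutrophil list at 335 against 498 to 2055. Their part in these calls was not tested. Il17a was at 683 normalised CPM in D5 B and at 131, 668 and 498 in D9 B, D19 B and D25 B (log2 fold change -0.66 ± 0.71, adjusted p = 0.858, edgeR), with D5 B above each progression library, D19 B close to it. Icos, Rora, Maf and Ccr2 differed by 0.27 ± 0.41, -0.32 ± 0.46, 0.17 ± 0.46 and 0.05 ± 0.56. Among single-receptor cells, Cd163l1-only cells made up 72.4% in D5 B (exact 95% interval 52.8 to 87.3) and 42.4% in D9 B, with an interval of 25.5 to 60.8. The share was 73.2% in D19 B, 62.7% in D25 B and 69.2% in STOP. D9 B was the lowest and the mean of progression differed from D5 B by -13.0 percentage points (two-sided exact permutation p = 0.750, smallest possible 0.250). No D0 library held 10 members, so neither genes nor receptor shares were compared with steady state.

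STOP and D19 B, 1 library each, were set side by side for the list genes with exact 95% Poisson intervals that cover counting error only and allow no test of recovery. Of 313 list genes with a UMI in either, 35 were higher in STOP and 16 lower with intervals that did not overlap. The count was not taken over all genes, so whether list genes differed more often than other genes was not tested. These levels are of all members. In the cleaned cells STOP kept 93301 of 129339 UMIs and D19 B 171723 of 299829. Barcodes with genes of other lineages thus took a larger part of the UMIs in D19 B, and their part in these differences was not tested. Il7r was at 2582 CPM in STOP (2313 to 2875) and 2034 in D19 B (1876 to 2203), Actn2 at 642 (511 to 796) and 213 (164 to 273) and Capg at 735 (594 to 898) and 417 (347 to 497). Il17f was at 100.5 (53.5 to 172) and 3.34 (0.0844 to 18.6), from 13 and 1 UMIs, and Ccr6 at 92.8 (47.9 to 162) and 13.3 (3.63 to 34.2). Maf was lower in STOP, at 634 (504 to 787) against 907 (803 to 1022), as was Nr4a2, a receptor activation gene, at 77.3 (37.1 to 142) against 257 (203 to 321). The macrophage-linked genes Apoe, Cd74, Lgals3 and Marco were also lower in STOP, where the members' macrophage list stood at 23.2 CPM against 724 in D19 B. The monocyte and neutrophil list ran the same way, at 124 against 2055. The biliary and hepatocyte lists ran the other way, at 3487 and 155 CPM in STOP against 210 and 36.7 in D19 B.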

How the data were processed

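For 13 libraries (10x 3′ chemistry, kallisto, GRCm38) the authors deposited unfiltered matrices of UMI counts, with 29307190 to 108602421 counts each. Barcodes with at least 1500 UMIs were kept. No doublet caller was run; barcodes with at least 2 UMIs of other-lineage genes were removed in an alternative. Counts were summed per library and set (at least 10 cells) and tested with edgeR 4.0.16 (TMM, quasi-likelihood, library as block, low-count filter), with DESeq2 1.42.0 as alternative. A normalised CPM is a summed count scaled to a common total with TMM; other CPM are without TMM. The 11 rule genes were not tested. Shares have exact Clopper-Pearson intervals and limits of 3 counts at 0. Members, 17 gene lists and 14 marker lists were chosen with earlier results of these data known. Named genes passed, with up to 6 per list at an average log2 CPM of at least 5, plus 10 per direction at 6 or more that moved alike in each library; genes outside this are said to be chosen afterwards. Some named genes are not reported here. Scripts were tested on simulated data. Fits by protocol, for D0 and with fewer usable libraries could not be run. Sequences came from GENCODE M21 and RefSeq.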

Additional observations from a re-analysis of the deposited data

Results flagged for a closer look

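A library was marked when its gap to the nearest value was large for the range of its group, a criterion that chance meets in about 1 group in 20; 63 groups were examined. Among the 10 DDC libraries, D9 A stood apart with 4.79% Scart-positive cells among CD3-positive barcodes, from 8 cells, 5 of which carried genes of other lineages. Among the Scart-positive cells of the 4 protocol B DDC libraries, Rora was low in D9 B at 363 normalised CPM, and Xcl1 was high in D5 B at 35.6. Of the 335073 UMIs of the D9 B members, 152644 remained without barcodes carrying genes of other lineages. The part of those barcodes in the low Rora value was not tested. In D25 B, Gzmb stood apart at 422, Ramp3 at 378, Klra5 at 10.96 and Klra1 at 2.74 normalised CPM. The Klra5 and Klra1 values rest on few UMIs, as the D25 B members held 363084 UMIs of all genes together. D25 B was also the library with NK cell or ILC1 genes in 22.6% of members, and their part in these values was not tested.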

How the results depend on the processing

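For Cd163l1-only against 5830411N06Rik-only cells, where 0 of 3165 genes passed, 35 of 14571 passed without a filter on low counts and 22 of 1363 in the cleaned cells. With at least 8 cells 6 of 1670 passed, with DESeq2 2 of 3165 and with DESeq2 on the cleaned cells 6 of 1363. With a library left out 0 to 9 passed, the 9 of 3343 without D19 B. Against other Trdc-positive cells, 279 of 4449 became 558 of 16877 without the filter and 480 of 2613 in the cleaned cells. The count was 735 of 11737 against all other CD3-positive, Cd8-negative cells and 49 of 2265 without NK and ILC1 genes in the reference. With a library left out it ran from 184 of 4786 (without D5 B) to 245 of 4330 (without D9 B). For progression against onset, 0 became 39 without the filter, 2 in thinned cells, 14 in the cleaned cells, 2 there with DESeq2, and 0 to 128 with a library left out. The number of genes tested changed with the setting in each of these comparisons, and the cause of the shifts was not tested. The DDC share reversed to -0.0546 points in thinned cells, was 1.73 points in the cleaned cells and ranged from -0.769 to 1.30 with a library left out; the receptor share reversed to 5.54 points in thinned cells and ranged from -19.8 to -4.43. Over the named genes of the second comparison, 880 of the repeated values kept their side of the threshold, 99 missed it in the same direction and 2 reversed, Itga1 to 0.15 without NK and ILC1 genes and Il2rb to 0.0734 against all other T cells. In the cleaned cells 55 of these genes kept their call and 1, Gbp7, missed it. Thinning left 1 usable library for the receptor sets, and a minimum of 20 cells none, so those fits were not run. The receptor sets held 14 to 41 cells per library. The first 2 comparisons paired the sets of each library through the library block, and the labels number no replicates by which other libraries could be paired.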

Other observations

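Cd79b, the B cell receptor signalling chain, was detected in 21.2% of the 226 Scart-positive cells, 14.5% of Cd163l1-only and 30.8% of 5830411N06Rik-only cells, against 4.73% of other Trdc-positive cells and 6.58% of Cd8-positive T barcodes. Its partner Cd79a was detected in 0.442% of the Scart-positive cells and in every one of the 550 B-cell-marked barcodes, which were chosen by it, and Cd79b remained in 19.5% of the cleaned Scart-positive cells.

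Areg, which encodes the growth factor amphiregulin, was detected in 17.4% of Cd163l1-only and 7.69% of 5830411N06Rik-only cells and in 2.21% of other Trdc-positive cells. In Cd163l1-only cells its level was 321 CPM in D19 B, 256 in STOP, 136 in D5 B, 90.2 in D25 B and 0 in D9 B, the libraries with at least 10 such cells. The UMIs lay in 4 of 41 cells in D19 B, 7 of 18 in STOP, 5 of 21 in D5 B and 6 of 32 in D25 B, so the highest level came from few cells, and no test was made.

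The Scart-bearing barcodes with Cd8 and no γδ gene, which the rule left out, carried Trac in 90.5% and Il17a in 0.413%, whereas those with CD3 but neither a γδ gene nor Cd8 carried Trac in 64.9%, Il17a in 12.8% and Maf in 69.1%.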
